A study of Mus musculus with 16 samples.

Results

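Elastic fibres give developing vessels, valves and the heart wall their recoil, and 10 genes that encode their building blocks were followed here across the ventricles of embryonic mouse hearts. The genes were chosen by name: Eln (elastin), the fibrillins Fbn1 and Fbn2, the fibulins Fbln1, Fbln2 and Fbln5, and the latent TGF-beta binding proteins Ltbp1, Ltbp2, Ltbp3 and Ltbp4. They were chosen with earlier results of these data known, so their counts beside the share of all genes are descriptive. All 10 were found among the 37991 genes of the count table, and all 10 passed the filter on low counts in every comparison. RNA from the left ventricle and the right ventricle of 8 embryos of strain C57BL/6 was sequenced in 16 libraries. The libraries cover 3 stages, each sampled as 1 litter with a single embryo with hypoplastic left heart syndrome (HLHS). That embryo had 1 control littermate in the E13.5 litter and 2 in each of the E14.5 and E17.5 litters. Litter was read from a number shared by the library titles, which do not name it as such. HLHS is a congenital defect in which the left-sided chambers, valves and aorta stay small, and the labels name it as the phenotype without giving a genotype for either group. Stage and litter are therefore the same factor, and the 3 HLHS embryos are the only replicates of that phenotype. Control embryos are numbered 1 (E13.5), 2 and 3 (E14.5), 4 and 5 (E17.5), and HLHS embryos 1 (E13.5), 2 (E14.5) and 3 (E17.5).

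An elastic fibre has a core of crosslinked elastin laid on a scaffold of microfibrils. Fibrillins polymerise into the microfibrils, with Fbn2 known mainly from embryonic tissue and Fbn1 from embryonic and adult tissue. Fibulins are secreted glycoproteins that bind elastin, fibrillins and basement membrane. Fbln5 tethers tropoelastin and crosslinking enzymes to microfibrils, while Fbln1 and Fbln2 are known from endocardial cushions and vessel walls. LTBPs resemble fibrillins. Ltbp1, Ltbp3 and Ltbp4 are secreted bound to the latent form of TGF-beta and anchor it in the matrix, while Ltbp2 binds microfibrils and does not carry latent TGF-beta. In the heart these proteins are known from the great arteries, the outflow tract, the valves and the coronary vessels.

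Promoter windows, from 250 bases before to 50 bases after the start of the gene, were found for 8 of the 10 genes in the RefSeq table of build GRCm38.p6; Eln and Fbn2 were not matched. Where a gene had more than 1 window, the one listed at the top was taken. The windows of 4 genes are shown because their levels carry the results: Fbln5 and Ltbp2 for the gap between right and left ventricle, Fbln2 for an HLHS difference that was unlike in the 2 ventricles, and Ltbp1 for an HLHS difference in both. Capitals mark the letters CAGAC or, on the other strand, GTCTG, the short sequence that SMAD proteins of the TGF-beta pathway bind. The windows lie at chr12:101819070-101819369 (minus strand) for Fbln5, chr12:84876442-84876741 (minus strand) for Ltbp2, chr6:91212514-91212813 (plus strand) for Fbln2 and chr17:75005279-75005578 (plus strand) for Ltbp1.
Fbln5: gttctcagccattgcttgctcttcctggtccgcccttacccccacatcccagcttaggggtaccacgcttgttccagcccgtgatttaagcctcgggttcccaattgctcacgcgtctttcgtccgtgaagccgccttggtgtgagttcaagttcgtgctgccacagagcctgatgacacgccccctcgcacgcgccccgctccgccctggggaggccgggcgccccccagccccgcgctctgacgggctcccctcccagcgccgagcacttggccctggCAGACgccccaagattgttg
Ltbp2: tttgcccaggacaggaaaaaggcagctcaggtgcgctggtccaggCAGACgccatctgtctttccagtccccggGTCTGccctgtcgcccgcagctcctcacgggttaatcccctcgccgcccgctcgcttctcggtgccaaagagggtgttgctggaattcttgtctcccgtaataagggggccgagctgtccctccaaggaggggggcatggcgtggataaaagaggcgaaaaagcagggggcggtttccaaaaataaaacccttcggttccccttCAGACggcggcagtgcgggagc
Fbln2: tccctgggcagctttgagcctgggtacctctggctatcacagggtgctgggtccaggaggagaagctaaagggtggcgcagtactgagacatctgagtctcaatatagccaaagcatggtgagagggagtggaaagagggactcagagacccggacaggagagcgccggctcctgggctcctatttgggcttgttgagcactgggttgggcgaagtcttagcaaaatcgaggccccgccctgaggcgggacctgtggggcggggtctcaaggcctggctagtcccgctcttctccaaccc
Ltbp1: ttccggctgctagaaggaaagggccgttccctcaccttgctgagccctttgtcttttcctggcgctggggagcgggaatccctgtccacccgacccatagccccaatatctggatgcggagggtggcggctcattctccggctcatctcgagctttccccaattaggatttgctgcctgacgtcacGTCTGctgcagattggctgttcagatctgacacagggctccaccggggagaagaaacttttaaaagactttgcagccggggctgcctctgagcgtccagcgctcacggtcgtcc
The Ltbp2 window held 3 matches to CAGAC on either strand, those of Fbln1 and Ltbp3 held 2 each, those of Fbln5 and Ltbp1 held 1 each, and those of Fbn1, Fbln2 and Ltbp4 held 0. Among all 32851 promoter windows of the table, 49.6% held at least 1 match and 3.9% held 3 or more. The letters GGGCGG (a GC box) were present on either strand in the windows of Fbn1, Fbln2, Fbln5, Ltbp2 and Ltbp4, and in 35.7% of all windows. Neither GGAATG (bound by TEAD factors, present in 14.7% of all windows) nor TATAAA, the core promoter element present in 13.6%, was found in the 8 windows. These matches describe the letters of the windows and were not related to the measurements.

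Between 17081273 and 28648645 reads were counted per library, and the 10 genes took 0.132% to 0.358% of them. Levels are given as CPM, read counts scaled to a common library size after TMM normalization for composition. The 10 markers of ventricular and general heart muscle summed to 20860 to 35850 CPM per library, with Tnnc1 the exception at no more than 3 counts in any library. Replicates are separate embryos, and p-values measure the spread between the embryos of these 3 litters. Every adjusted p comes from the quasi-likelihood test of edgeR and was adjusted by Benjamini-Hochberg over all genes tested; a gene was called at 0.05. In bulk RNA, fewer cells of a type and less RNA per cell cannot be told apart.

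Per kilobase of exon, Ltbp4 had the highest mean of the 10 in the control left ventricle at 40.0 ± 7.80 CPM per kb (SD, n = 5). Fbln1 (30.0 ± 9.93), Fbln2 (25.4 ± 5.55), Fbn2 (24.4 ± 8.92), Fbn1 (21.1 ± 2.97) and Eln (17.3 ± 8.35 CPM per kb) came next. The ranges of mean ± SD of Ltbp4 and Fbln1 overlapped, and from Fbln1 to Eln neighbours differed by less than the larger of their SDs. Ltbp3 (9.94 ± 2.01) and Ltbp1 (9.84 ± 3.57 CPM per kb) were lower and level with each other. Fbln5 at 2.05 ± 0.56 and Ltbp2 at 0.353 ± 0.322 CPM per kb were the least abundant. In the control right ventricle Eln led at 46.2 ± 24.1 CPM per kb, beside Ltbp4 at 43.4 ± 6.53, a gap well inside the SD of Eln. Fbln5 (5.87 ± 3.90) and Ltbp2 (2.05 ± 1.21 CPM per kb) were again at the bottom. In the HLHS right ventricle Eln reached 89.8 ± 18.7 and Fbln2 60.4 ± 9.63 CPM per kb (SD, n = 3), ahead of Ltbp4 at 45.5 ± 7.36. In the HLHS left ventricle Fbln1 (39.0 ± 16.4), Ltbp4 (36.5 ± 8.39) and Fbn2 (35.8 ± 16.0 CPM per kb) could not be ordered within their spread, and Fbln5 (1.92 ± 0.09) and Ltbp2 (0.861 ± 0.083 CPM per kb) were lowest.

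**Figure D1:**
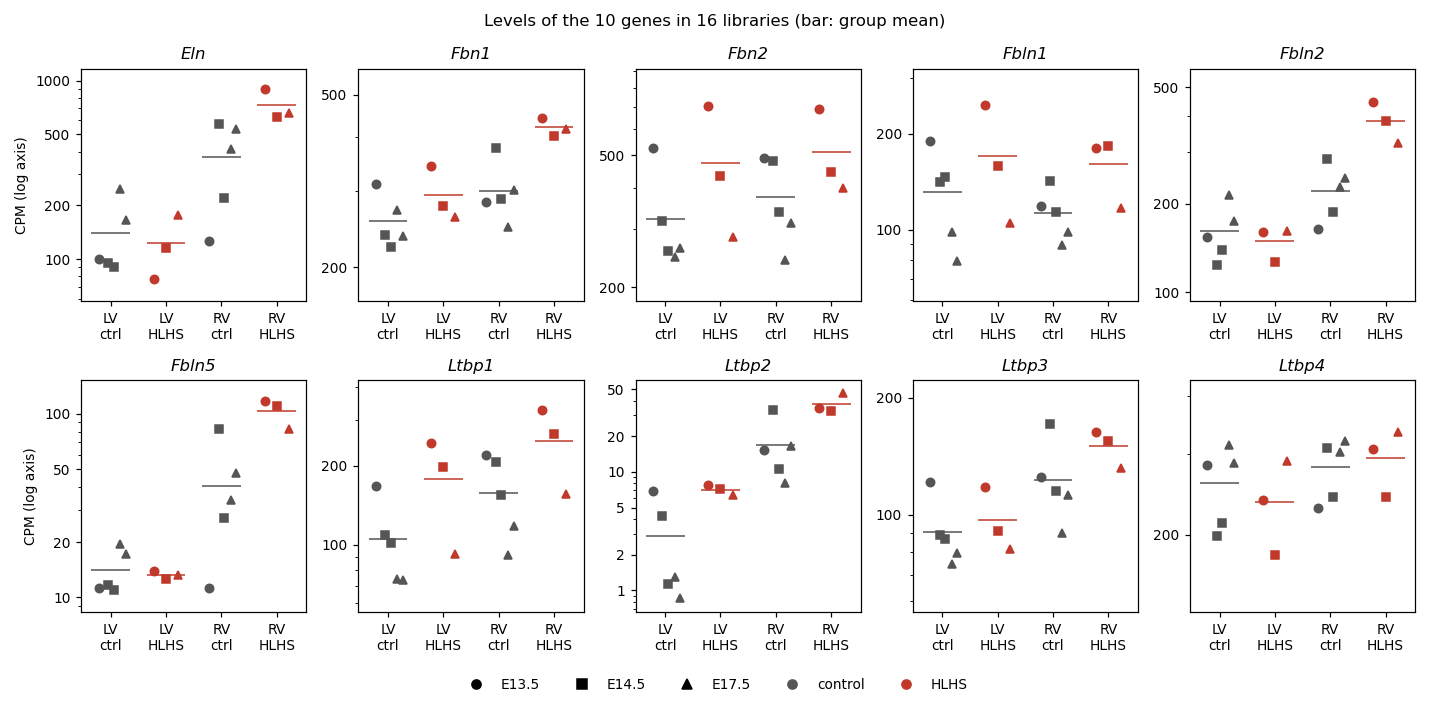
Levels of the 10 genes in CPM (log axis, 1 panel per gene) in control (grey) and HLHS (red) libraries of the left (LV) and right (RV) ventricle; symbols give the stage and bars the group mean. Fbln5 lay between 11.04 and 19.4 CPM in all 8 left libraries, and between 82.8 and 118 CPM in the 3 HLHS right libraries.

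The HLHS ventricles were compared with the littermate controls in each ventricle with stage as a term, so that each HLHS embryo was set against its own litter. In the left ventricle 2 of the 10 genes rose in HLHS, Ltbp1 and Fbn2, and 0 fell. Over all 15979 genes tested there, 12.8% were called (6.17% higher, 6.61% lower), so the share of the 10 is near the background. In the right ventricle 4 of the 10 rose, Fbn1, Fbln1, Fbln2 and Ltbp1, and 0 fell, against 6.61% called of 16142 genes tested (3.56% higher, 3.05% lower). The median log2 change of the 10 was 0.10 in the left and 0.53 in the right ventricle, against 0.01 over all genes tested in each. When the counts of both ventricles were summed per embryo, 6 of the 10 rose (Fbn1, Fbn2, Fbln1, Fbln2, Fbln5 and Ltbp1) and 0 fell, against 13.8% called of 17429 genes (6.85% higher, 6.93% lower). The left and right comparisons come from the same 8 embryos and the sum contains both, so the 3 counts are not independent. With the 10 genes chosen while earlier results were known, the shares of all genes are given for description only. The summed log2 changes of Fbn1 (0.33 ± 0.07), Fbn2 (0.37 ± 0.10) and Fbln2 (0.48 ± 0.12) passed in 4, 3 and 5 of the 8 fits that left out an embryo.

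The right ventricle count rested on few embryos. It was 9 without control embryo 2, 2 without control embryo 3 or HLHS embryo 3, and 0 without control embryo 1, HLHS embryo 1 or HLHS embryo 2; leaving out either E13.5 embryo takes that litter out of the comparison. For the left ventricle the count was 1 without HLHS embryo 2 and 2 without any other embryo. For the summed ventricles it was 2 without control embryo 1, HLHS embryo 1 or HLHS embryo 2, 3 without HLHS embryo 3, and 4 to 9 without any other embryo. All counts were 0 when stage was left out of the model, where at most 1 gene of the whole table was called.

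**Figure D2:**
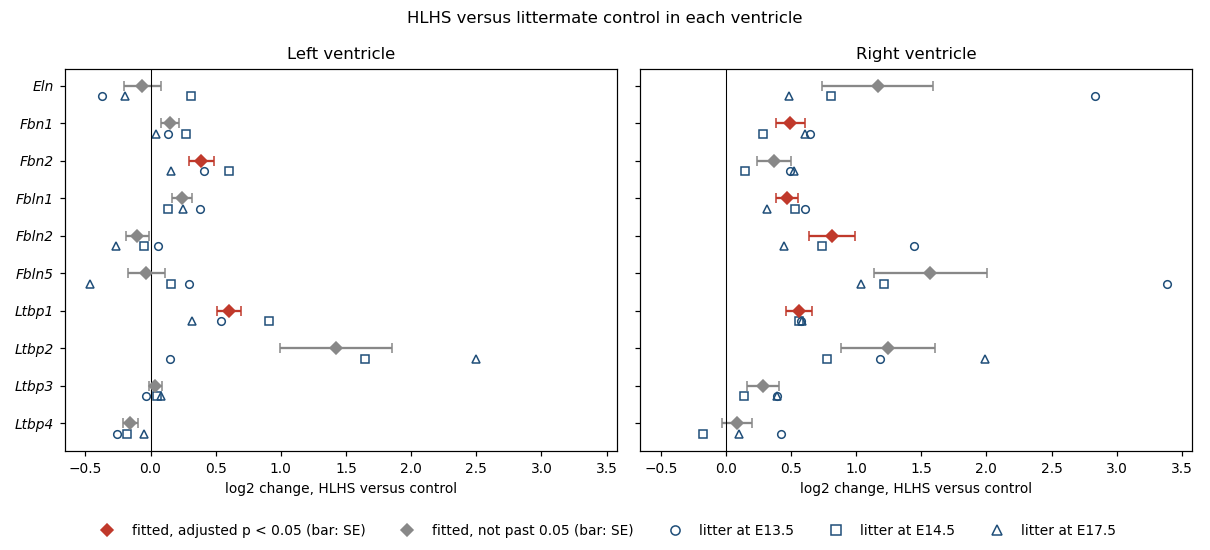
The log2 change of each gene between HLHS and control in the left and right ventricle: diamonds are the fitted changes with SE bars (red, adjusted p under 0.05; grey, not), and open symbols are the differences within each litter. In the right ventricle the E13.5 litter (circles) had differences of 2.83 for Eln and 3.39 for Fbln5, larger than in the other litters.

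Elastin was called between the ventricles and not between the phenotypes. Eln in the left ventricle stood at 99.99 CPM in control embryo 1, 95.0 and 90.8 CPM in controls 2 and 3, and 248 and 166 CPM in controls 4 and 5. The HLHS left ventricles held 77.4, 115 and 177 CPM in order of stage. HLHS and control overlapped there, and the fitted log2 change was -0.06 ± 0.15 (SE, adjusted p = 0.82). On the right, control embryos 1 to 5 held 126, 574, 221, 414 and 535 CPM, and the HLHS embryos 901, 624 and 658 CPM. All 3 HLHS right libraries lay above all 5 controls, but the E13.5 litter differed 7.14-fold and the E17.5 litter 1.39-fold. The E13.5 control right library also stood apart for epicardial markers, at a sum of 107 CPM against 207 to 257 CPM in the other 4 control right ventricles, and its part in the fold was not tested. The change of 1.17 ± 0.42 did not pass (adjusted p = 0.13). It passed in 1 of the 8 fits that left out an embryo, with a range from 0.56 to 1.62. The difference between the HLHS effects in left and right, -1.27 ± 0.45, did not pass either (adjusted p = 0.26).

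Eln was lower in the left than in the right ventricle of every embryo. The right-over-left ratio ran from 1.26 to 6.05 in the 5 controls and from 3.72 to 11.6 in the 3 HLHS embryos. The left-versus-right log2 change was -1.33 ± 0.25 in controls (adjusted p = 0.013) and -2.59 ± 0.27 in HLHS (adjusted p = 0.0019). It passed in 5 of 5 and 3 of 3 fits that left out an embryo. In the control left ventricle Eln rose from E14.5 to E17.5 by a log2 change of 1.15 ± 0.15 (adjusted p = 0.0012). Its change on the right was 0.27 ± 0.36 (adjusted p = 0.63), and its sign turned without control embryo 3, to -0.26.

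Both fibrillins had higher fitted levels in HLHS, Fbn2 by a called change on the left and Fbn1 by a called change on the right. Fbn2, the fibrillin of embryonic microfibrils, stood at 528, 316, 257, 247 and 264 CPM in the left ventricle of control embryos 1 to 5, and at 703, 433 and 285 CPM in the HLHS embryos. Each HLHS value lay above every control of its own litter, while the groups overlapped across stages. The log2 change was 0.39 ± 0.10 (adjusted p = 0.029), and it passed in 3 of the 8 fits that left out an embryo (adjusted p from 0.0094 to 0.17). With all 16 libraries in 1 fit it did not pass (adjusted p = 0.064). On the right Fbn2 held 492, 482, 338, 242 and 313 CPM in controls and 691, 447 and 397 CPM in HLHS. The E14.5 HLHS value lay between the 2 controls of its litter, and the log2 change of 0.37 ± 0.13 did not pass (adjusted p = 0.13). The sizes on the left and right were alike, and their difference was 0.01 ± 0.14 (adjusted p = 0.99).

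Fbn1, the fibrillin of embryonic and adult microfibrils, showed its HLHS difference on the right. The control right ventricles held 282, 378, 287, 248 and 302 CPM, and the HLHS right ventricles 442, 402 and 416 CPM. The groups did not overlap, and the log2 change was 0.50 ± 0.11 (adjusted p = 0.031). It passed in 2 of the 8 fits that left out an embryo, with a range from 0.44 to 0.61. Left ventricles held 312, 238, 223, 271 and 237 CPM in controls and 343, 278 and 262 CPM in HLHS. Those groups overlapped, with a change of 0.15 ± 0.07 (adjusted p = 0.19). The difference between left and right, -0.35 ± 0.14, did not pass (adjusted p = 0.33), so the 2 ventricles were not shown to differ.

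Across sides, Fbn1 was lower on the left in all 3 HLHS embryos, with right-over-left ratios from 1.29 to 1.59 and a left-versus-right log2 change of -0.50 ± 0.10 (adjusted p = 0.028). It passed in 1 of the 3 fits that left out an HLHS embryo, with adjusted p up to 0.11. In controls the ratio ran from 0.91 to 1.59 and the change of -0.22 ± 0.11 did not pass (adjusted p = 0.27). Fbn2 was not called between sides in controls (-0.23 ± 0.09, adjusted p = 0.20) or HLHS (-0.15 ± 0.12, adjusted p = 0.64). Neither fibrillin was called between E14.5 and E17.5 in control ventricles. For Fbn2 on the right that change was -0.55 ± 0.18 (adjusted p = 0.069). Fbn2 in the E13.5 left ventricles of both phenotypes exceeded every later left library.

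Of the 3 fibulins, Fbln2 and Fbln5 had fitted changes of the same sign with HLHS on the right, by side, and with stage on the left. Fbln1 was unlike them by side and stage. Fbln2, a fibulin of cushions and vessel walls, was the 1 gene of the 10 whose HLHS effect was called as different between the ventricles. Right ventricles held 164, 286, 187, 228 and 246 CPM in control embryos 1 to 5 and 446, 385 and 324 CPM in HLHS. All 3 HLHS libraries lay above all 5 controls, with ratios within litters of 2.73, 1.63 and 1.37 in order of stage. The log2 change on the right was 0.82 ± 0.17 (adjusted p = 0.027), and it passed in 4 of the 8 fits that left out an embryo. Left-ventricle Fbln2 was at 155, 124, 139, 215 and 174.9 CPM in controls and 161, 127 and 162 CPM in HLHS. Those groups overlapped fully, with a change of -0.10 ± 0.09 (adjusted p = 0.48).

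The difference between those effects, left minus right, was -0.92 ± 0.18 for Fbln2 (adjusted p = 0.035), where 1.04% of 16508 genes were called (0.533% higher, 0.503% lower). It was the same sign in 8 of 8 fits that left out an embryo, from -1.05 to -0.75, and passed in 3 of them; it did not pass without control embryo 1, 3 or 4 or HLHS embryo 1 or 2. Without a term for side by stage it was -0.90 and not called (adjusted p = 0.19), and that model called 3 genes of the whole table. Fbln2 was lower on the left in all 3 HLHS embryos, with right-over-left ratios from 2.00 to 3.03 and a change of -1.34 ± 0.12 (adjusted p = 0.0013). In controls the ratio ran from 1.06 to 2.30, and the change of -0.46 ± 0.14 did not pass (adjusted p = 0.079). In the same left-minus-right difference 3 of 10 fibroblast, 2 of 10 cushion and 2 of 10 epicardial markers were lower and 0 of each higher, with medians of -0.67, -0.74 and -0.64. Of the erythroid markers 2 of 10 were higher and 0 lower, with a median of 0.72, and the part of these lists in the Fbln2 difference was not tested.

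Fbln5, the fibulin that tethers elastin to microfibrils, had the widest range among the fibulins. In the left ventricle all 8 libraries were low: 11.3, 11.7, 11.04, 19.4 and 17.2 CPM in controls and 13.9, 12.7 and 13.2 CPM in HLHS. Control right ventricles held 11.2, 82.6, 27.2, 34.0 and 47.7 CPM, and the HLHS embryos 118, 110 and 82.8 CPM. The HLHS right libraries all lay above the controls, although HLHS embryo 3 stood barely above control embryo 2. The HLHS-to-control ratio was 10.5 in the E13.5 litter, 2.00 in the E14.5 litter and 2.03 in the E17.5 litter. The log2 change of 1.57 ± 0.43 did not pass on the right (adjusted p = 0.060), and it passed with control embryo 2 left out. In the summed ventricles Fbln5 rose by 1.22 ± 0.33 (adjusted p = 0.040), in 2 of the 8 fits that left out an embryo.

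The left-right gap of Fbln5 was large in HLHS. The right-over-left ratio was 6.26 to 8.69 in the 3 HLHS embryos, and the left-versus-right log2 change was -2.93 ± 0.11 (adjusted p = 2.05e-05). Among controls the ratio ran from 0.99 in embryo 1 to 7.05 in embryo 2, with a change of -1.35 ± 0.29 (adjusted p = 0.023) that passed in 3 of the 5 fits that left out an embryo. The difference between the HLHS effects on the left and right was -1.69 ± 0.37 and missed the threshold (adjusted p = 0.055). Fbln5 rose in the control left ventricle from E14.5 to E17.5 (0.69 ± 0.11, adjusted p = 0.0021), as did Fbln2 (0.57 ± 0.10, adjusted p = 0.0036). Neither was called on the right, where Fbln5 had a change of -0.41 ± 0.41 that turned to 0.58 without control embryo 2.

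Fbln1, which binds fibronectin and basement membrane, fell with stage and was not called by side. Left ventricles held 190, 142, 147, 98.4 and 79.4 CPM in control embryos 1 to 5 and 247, 158 and 105 CPM in HLHS. Each HLHS value lay above every control of its litter, but the log2 change of 0.24 ± 0.08 did not pass (adjusted p = 0.064). Right ventricles held 119, 143, 114, 89.5 and 98.2 CPM in controls and 181, 184 and 117 CPM in HLHS. Again each HLHS value exceeded its litter, and Fbln1 rose by 0.47 ± 0.08 (adjusted p = 0.016), in 5 of the 8 fits that left out an embryo. In the summed ventricles the rise of 0.34 ± 0.05 (adjusted p = 0.0035) passed in 8 of 8 such fits. Between E14.5 and E17.5 Fbln1 fell in control left ventricles (-0.70 ± 0.09, adjusted p = 0.0010) and right ventricles (-0.44 ± 0.11, adjusted p = 0.036). The right change ran from -0.583 to -0.275 over the fits that left out an embryo. Its left-versus-right change was 0.17 ± 0.11 in controls (adjusted p = 0.41) and 0.05 ± 0.13 in HLHS (adjusted p = 0.90).

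Ltbp1, a carrier of latent TGF-beta, rose in both ventricles of the HLHS embryos. In the left ventricle controls held 168, 109, 102, 74.4 and 73.7 CPM and HLHS embryos 244, 198 and 92.4 CPM. In the right ventricle controls held 219, 206, 155, 91.4 and 118 CPM and HLHS embryos 327, 264 and 156 CPM. In both ventricles each HLHS value lay above every control of its litter, while the groups overlapped across stages. The log2 change was 0.60 ± 0.09 on the left (adjusted p = 0.0048) and 0.56 ± 0.10 on the right (adjusted p = 0.016). The left change passed in 8 of 8 fits that left out an embryo, the right change in 4 of 8 with adjusted p up to 0.077, and the summed change of 0.57 ± 0.08 (adjusted p = 0.0034) in 8 of 8. The ratio within litters was 1.49, 1.46 and 1.49 on the right and 1.45, 1.88 and 1.25 on the left, in order of stage. The difference between the 2 ventricles was 0.03 ± 0.13 (adjusted p = 0.97).

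Ltbp1 was also lower on the left and lower at the later stage. The left-versus-right log2 change was -0.58 ± 0.08 in controls (adjusted p = 0.0027), with the right side higher in 5 of 5 embryos, and -0.51 ± 0.10 in HLHS (adjusted p = 0.026), with the right side higher in 3 of 3. In HLHS it passed in 1 of the 3 fits that left out an embryo. From E14.5 to E17.5 Ltbp1 fell by 0.51 on the log2 scale in the control left ventricle (SE 0.06, adjusted p = 0.00052) and by 0.78 in the right (SE 0.15, adjusted p = 0.016). Over the fits that left out an embryo the change ran from -0.56 to -0.46 on the left and from -0.97 to -0.57 on the right.

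Ltbp2, the microfibril-bound member that does not carry TGF-beta, was higher in the right than in the left ventricle of every embryo. In the left ventricle controls held 6.92, 4.23, 1.14, 1.29 and 0.865 CPM and HLHS embryos 7.69, 7.11 and 6.34 CPM, from 22 to 181 counts per library. Those HLHS values hardly varied with stage, and each lay above every control of its litter. In the right ventricle controls held 15.3, 33.3, 10.7, 8.07 and 16.5 CPM and HLHS embryos 34.8, 32.5 and 46.1 CPM. On that side the E14.5 HLHS value lay just under control embryo 2. The log2 changes with HLHS, 1.43 ± 0.43 on the left (adjusted p = 0.058) and 1.24 ± 0.36 on the right (adjusted p = 0.068), did not pass. The left change passed in 3 of the 8 fits that left out an embryo, the right change in 1 of 8.

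Ltbp2 was called between the sides in both phenotypes, with a wide spread of the ratio among control embryos. The left-versus-right log2 change was -2.70 ± 0.32 in controls (adjusted p = 0.0010) and -2.39 ± 0.15 in HLHS (adjusted p = 0.00040), and it passed in every fit that left out an embryo. The right-over-left ratio ran from 2.21 to 19.1 in the 5 controls and from 4.53 to 7.27 in the 3 HLHS embryos. The HLHS effect did not differ detectably between the sides (0.21 ± 0.33, adjusted p = 0.89). Ltbp2 was not called between stages in either control ventricle. Its left-ventricle change of -1.29 ± 0.56 (adjusted p = 0.11) was -0.087 without control embryo 2 and -1.98 without control embryo 3. Such fits leave 1 library at a stage, so only their effect sizes are given. The right-ventricle change of Ltbp2, -0.83 ± 0.48 (adjusted p = 0.26), turned to 0.20 without control embryo 2. It was -1.42 and -1.43 without control embryo 3 or 5.

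Ltbp3 and Ltbp4, which carry latent TGF-beta as well, were not called with HLHS in either ventricle. Ltbp3 held 74.7 to 121 CPM in control and 81.4 to 118 CPM in HLHS left ventricles, and 89.6 to 171 CPM in control and 132 to 164 CPM in HLHS right ventricles. Its log2 changes were 0.04 ± 0.05 on the left (adjusted p = 0.65) and 0.28 ± 0.12 on the right (adjusted p = 0.20). It was lower on the left than the right, by -0.44 ± 0.10 in controls (adjusted p = 0.034, passing in 3 of the 5 fits that left out an embryo) and -0.62 ± 0.09 in HLHS (adjusted p = 0.0062). Whether the counting used strand is not stated, and counts of Ltbp3 may hold reads from the other strand.

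Ltbp4 was not called by phenotype or by side. It held 198 to 313 CPM in control and 181 to 289 CPM in HLHS left ventricles, and 228 to 320 CPM in control and 242 to 334 CPM in HLHS right ventricles. Its HLHS changes were -0.15 ± 0.06 on the left (adjusted p = 0.13) and 0.09 ± 0.11 on the right (adjusted p = 0.70), and its left-versus-right changes were -0.13 ± 0.11 in controls (adjusted p = 0.54) and -0.31 ± 0.09 in HLHS (adjusted p = 0.12). It rose in the control left ventricle from E14.5 to E17.5 by 0.55 ± 0.07 (adjusted p = 0.00094).

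The side comparison was made within embryos, left against right, and its counts likewise describe genes chosen with earlier results of these data known. In controls 5 of the 10 genes were lower on the left (Eln, Fbln5, Ltbp1, Ltbp2 and Ltbp3) and 0 were higher, where 6.1% of 16238 genes were called, 4.01% lower and 2.09% higher on the left. In HLHS 7 were lower (Eln, Fbn1, Fbln2, Fbln5, Ltbp1, Ltbp2 and Ltbp3) and 0 were higher, where 4.04% of 15771 genes were called, 2.89% lower and 1.15% higher on the left. The median log2 change of the 10 was -0.45 in controls and -0.57 in HLHS, against -0.01 and 0.02 over all genes tested. The control count was 3 without control embryo 3 or 5, and the HLHS count was 5 to 7 over the fits that left out an embryo. A gene called in HLHS and not in controls is not thereby shown to differ between them, and of the 7 the difference itself was called for Fbln2 alone. Cushion and valve markers were lower on the left for 9 of 10 in controls and 8 of 10 in HLHS, and fibroblast markers for 1 of 10 in controls and 6 of 10 in HLHS, with 0 higher in each. In HLHS the fibroblast sums were 3533 to 4323 CPM on the left and 5050 to 6782 CPM on the right. Erythroid markers were higher on the left for 7 of 10 in HLHS, with sums of 754 to 1342 CPM against 562 to 817.5 CPM, and for 0 of 10 in controls. Of the 10 atrial markers 5 were lower and 2 higher on the left in controls, and 1 was lower and 0 higher in HLHS. The medians of the atrial list were -0.29 and -0.63. The part of these lists in the side differences was not tested.

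**Figure D3:**
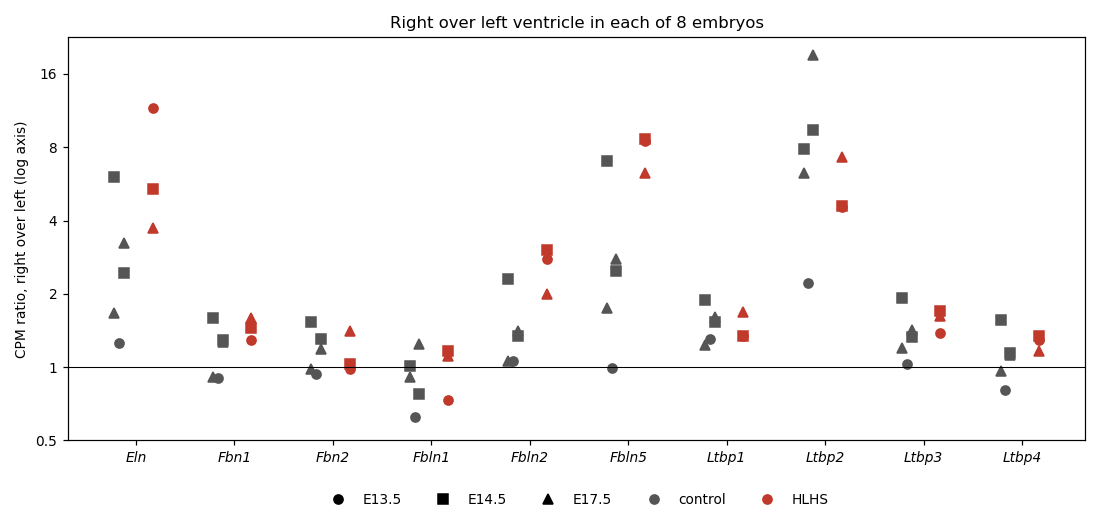
The right-over-left CPM ratio (log axis) of each gene in each of the 8 embryos, grey for control and red for HLHS, with symbols for stage. Ltbp2 lay above 1 in all 8 embryos, from 2.21 to 19.1, and Fbln1 lay on both sides of 1 in either phenotype.

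Marker lists of other cell types differed among the right ventricles, and not all in the same order as the 10 genes. The 10 cushion and valve markers summed to 859, 828.8, 624, 328 and 424 CPM in the right ventricle of control embryos 1 to 5 and to 1375, 1105 and 781 CPM in HLHS, so that each HLHS library lay above its litter. Among the controls that sum was highest in embryo 1, where Eln, Fbln5 and Fbln2 were lowest. Vcan was its largest part in every library, with 674 CPM in embryo 1 and 629 CPM in embryo 2. Sox9, Hapln1, Has2, Col9a1, Twist1 and Scx were lower in embryo 1 than in embryo 2, and Vcan, Col2a1 and Msx1 were higher. Of the 10 cushion markers 5 rose and 0 fell with HLHS on the right, where 3.56% of all genes rose and 3.05% fell. The 10 fibroblast and mesenchyme markers summed to 2891, 5802, 4542, 5356 and 5741 CPM in control right ventricles, with the E13.5 control lowest, and to 5050, 5752 and 6782 CPM in HLHS. By edgeR 0 of them were called with HLHS on the right, where 7 had an unadjusted p under 0.05, and DESeq2 called 4 and limma-voom 0. The 10 smooth muscle markers summed to 2260 to 3027 CPM in control and 2439 to 2994 CPM in HLHS right ventricles, which overlapped. Acta2 and Des were the largest parts of that sum, and by gene 2 of the 10 rose and 1 fell. Tagln held 68.04 to 104.7 CPM in control and 134.8 to 160.5 CPM in HLHS right ventricles. Smtn ran the other way within each litter. It held 136.8, 110.3, 110.8, 139.2 and 140.4 CPM in control embryos 1 to 5 and 113.9, 83.3 and 103.5 CPM in HLHS. The 10 epicardial markers summed to 107 CPM in the right ventricle of control embryo 1, 207 to 257 CPM in the other control right ventricles and 199 to 253 CPM in HLHS. No gene of these 4 lists was at 0 in any library, and Vcan stands both in the cushion list and among the elastic fibre partners. Of 9 tested cardiomyocyte markers 0 rose and 2 fell with HLHS on the right, with a median log2 change of -0.27. By edgeR 8 of the 9 had an unadjusted p under 0.05. The part of all these lists in the differences of Eln, Fbln2, Fbln5 and Ltbp2 was not tested.

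Within the E14.5 litter the 2 control right ventricles themselves differed. Control embryo 2 held 574 CPM of Eln, 82.6 CPM of Fbln5 and 33.3 CPM of Ltbp2, near the HLHS littermate, and control embryo 3 held 221, 27.2 and 10.7 CPM. The cushion and valve sum was 828.8 CPM in embryo 2 and 624 CPM in embryo 3, and the fibroblast sum 5802 and 4542 CPM. The left ventricles of these 2 embryos had 95.0 and 90.8 CPM of Eln and 11.7 and 11.04 CPM of Fbln5, so the gap was on the right.

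**Figure D4:**
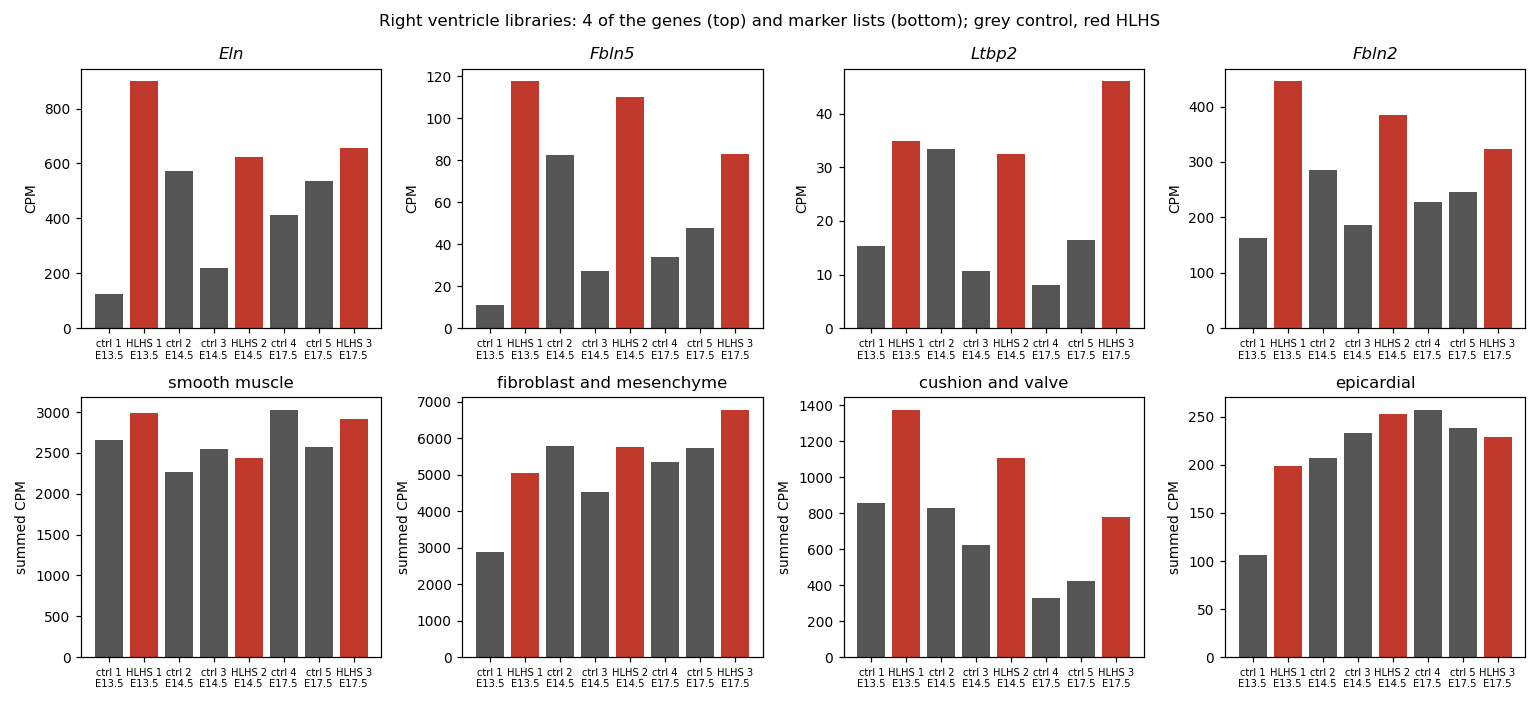
The 8 right ventricle libraries ordered by stage (grey control, red HLHS): CPM of Eln, Fbln5, Ltbp2 and Fbln2 in the top row and summed CPM of 4 marker lists below, each axis starting at 0. Control embryo 2 stands near HLHS embryo 2 for Eln, Fbln5 and Ltbp2. Control embryo 1 is lowest for Eln, Fbln5, Fbln2 and the fibroblast and epicardial lists. It is highest of the controls for the cushion list, a sum of which Vcan is the largest part.

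On the left, where Ltbp1 and Fbn2 rose with HLHS, other lists moved. The smooth muscle markers summed to 2748 to 4299 CPM in HLHS and 2303 to 2630 CPM in control left ventricles, without overlap. Of these 10 genes 3 were higher and 2 lower, where 6.17% of all genes were higher and 6.61% lower. Acta2 and Des were the largest parts of that sum in every library. Myh11 ran against the sum, at 0.977, 2.17 and 10.6 CPM in HLHS. It held 1.13, 2.74, 4.05, 29.2 and 24.7 CPM in control embryos 1 to 5. The fibroblast and mesenchyme markers had 5 of 10 lower and 0 higher, with sums of 3533 to 4323 CPM in HLHS against 4064 to 5264 CPM in controls. The erythroid markers had 9 of 10 higher, with sums of 754 to 1342 CPM against 470 to 829.5 CPM. Cushion and valve markers had 3 of 10 higher and 0 lower, with sums of 358 to 735 CPM against 291 to 525 CPM. Endothelial and endocardial markers had 3 of 10 lower and 1 higher, and pericyte markers 2 of 8 lower and 1 higher. Of 9 tested cardiomyocyte markers 2 were lower and 0 higher. The part of these lists in the left ventricle results was not tested.

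Between E14.5 and E17.5, 7 of the 10 genes changed in the control left ventricle and 2 in the control right ventricle. Each of these comparisons set 2 libraries against 2, with the E13.5 control at a level of its own. Leaving out control embryo 1 therefore has almost no bearing on them, and leaving out any other embryo sets 2 libraries against 1. On the left Eln, Fbln2, Fbln5 and Ltbp4 rose and Fbln1, Ltbp1 and Ltbp3 fell, where 35.8% of 16276 genes were called (19.6% higher, 16.2% lower). The fall of Ltbp3 was the smallest, at 0.18 on the log2 scale (SE 0.06, adjusted p = 0.040), and passed in 1 of the 5 fits that left out an embryo. Marker lists changed in the same left ventricles: 7 of 10 fibroblast, 7 of 8 pericyte, 6 of 10 smooth muscle and 8 of 9 tested cardiomyocyte markers were higher at E17.5, with 2 smooth muscle markers and 0 of the others lower. Of the 10 cushion markers 4 were lower and 2 higher. The fibroblast sums were 4064 and 4106 CPM at E14.5 and 5264 and 4831 CPM at E17.5, and the part of these lists in the stage changes was not tested. On the right Fbln1 and Ltbp1 fell and 0 rose, where 17.4% of 16500 genes were called (9.26% higher, 8.18% lower). The right count was 7 without control embryo 3, 5 without control embryo 5 and 1 without control embryo 4. Each stage is 1 litter, so stage and litter cannot be told apart. The change of the left-right difference from E14.5 to E17.5 was called by edgeR for 0 of the 10, with 5 at an unadjusted p under 0.05, and by DESeq2 and limma-voom for 0; over all 16757 genes tested, edgeR called 5.14% (3.82% higher, 1.32% lower). Without control embryo 3 edgeR called 8 of the 10, and without control embryo 2 it called 1. A stage change on the left alone was therefore not shown to be particular to that side.

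**Figure D5:**
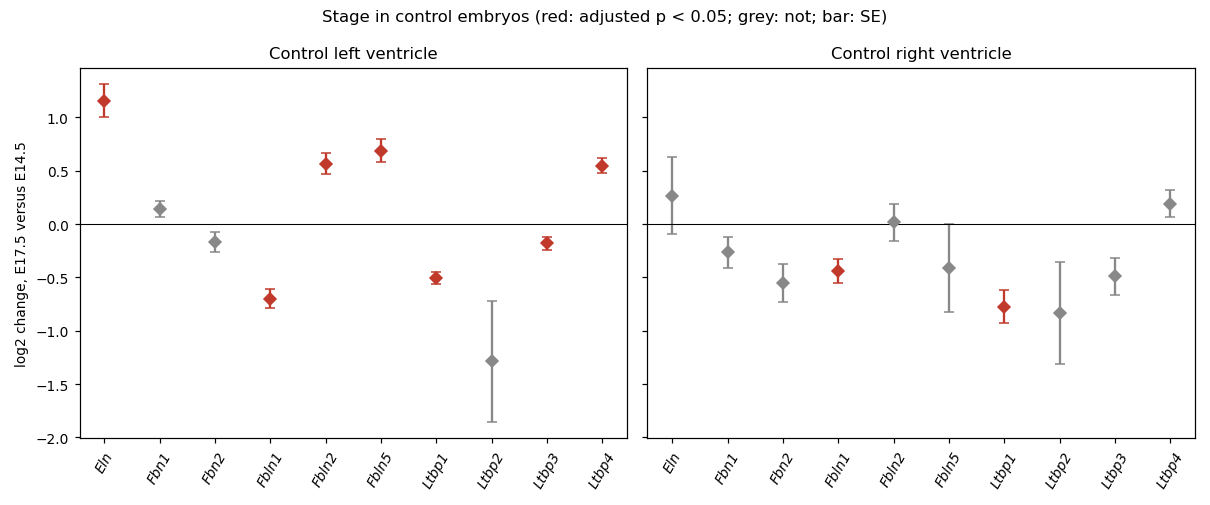
The fitted log2 change from E14.5 to E17.5 in control left and right ventricles, with SE bars (red, adjusted p under 0.05; grey, not). Fbln1 and Ltbp1 lay below 0 and were called in both ventricles, and Eln was called on the left alone, at 1.15 against 0.27 on the right.

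Genes that work with these 10 were counted in 3 lists, also chosen with earlier results of these data known. Of 34 partners of the elastic fibre and microfibril (crosslinking enzymes, microfibril-associated proteins, EMILINs, ADAMTS-like proteins and proteoglycans), 9 rose and 4 fell with HLHS in the left ventricle and 10 rose and 2 fell in the right. Over all genes tested 6.17% rose and 6.61% fell on the left, and 3.56% rose and 3.05% fell on the right. The medians of the partners' log2 changes were 0.11 and 0.32. On the left Loxl2, a collagen and elastin crosslinking enzyme, rose by 0.80 ± 0.11 (adjusted p = 0.0027). Mfap5, a microfibril-associated glycoprotein, fell by 1.07 on the log2 scale (SE 0.15, adjusted p = 0.0030), and Efemp1, another fibulin, fell by 0.96 (SE 0.19, adjusted p = 0.011). On the right the proteoglycans Bgn (0.77 ± 0.13, adjusted p = 0.012) and Vcan (0.76 ± 0.13, adjusted p = 0.014) rose, as did Fn1, fibronectin (0.62 ± 0.13, adjusted p = 0.025).

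Of 30 ligands, carriers, activators, receptors and targets of the latent TGF-beta system, 11 rose and 1 fell with HLHS on the left. On the right 7 rose and 0 fell, and the medians were 0.20 on the left and 0.21 on the right. Over all genes tested 12.8% were called on the left and 6.61% on the right. The ligand Tgfb2 rose on the left by 0.88 ± 0.06 (adjusted p = 0.00014) and on the right by 0.67 ± 0.09 (adjusted p = 0.0066). It held 71.0, 60.7, 64.0, 46.7 and 43.3 CPM in control left ventricles and 129, 121 and 79.9 CPM in HLHS, with no overlap. Thbs1, thrombospondin and an activator of latent TGF-beta, rose by 1.26 ± 0.10 on the left (adjusted p = 0.00031) and 1.34 ± 0.23 on the right (adjusted p = 0.014). Of 16 tested matrix proteases and protease inhibitors, 1 rose and 2 fell on the left and 2 rose and 0 fell on the right. The left count is near the share over all genes. The risen ones on the right were Adamts5, known for cleaving proteoglycans (0.54 ± 0.13, adjusted p = 0.041) and Mmp2, a gelatinase (0.47 ± 0.09, adjusted p = 0.021), and Ctsk fell on the left by 0.59 (SE 0.10, adjusted p = 0.0077).

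By side, 6 of the 34 partners were lower on the left in controls, among them Vcan (-0.53 ± 0.10, adjusted p = 0.011) and Bgn (-0.46 ± 0.11, adjusted p = 0.035), and 0 were higher. In HLHS 7 were lower and 0 higher, among them Mfap5 (-1.09 ± 0.22, adjusted p = 0.027) and Mfap4 (-0.60 ± 0.10, adjusted p = 0.014). Over all genes tested 4.01% were lower on the left in controls and 2.89% in HLHS. From E14.5 to E17.5 in the control left ventricle 8 partners rose and 11 fell, where 19.6% of all genes tested rose and 16.2% fell. Mfap5 rose by 1.32 ± 0.18 (adjusted p = 0.0011), and Mfap2, another microfibril-associated glycoprotein, fell by 0.76 (SE 0.11, adjusted p = 0.0016).

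Likeness of pattern was measured as the root mean square difference of log2 CPM, each gene centred on its own mean, over the 16 libraries and 11256 genes. The values describe libraries that share embryos, stages and sides. Fbln5 was most like Eln (0.37, against a spread of 1.24 for Fbln5 itself) and then Sfrp2, a secreted Wnt modulator (0.48). Fbln2 was most like Sox9, a cushion transcription factor (0.15), and Enc1 (0.17), and Ltbp1 was most like Vcan (0.17) and Cbarp (0.20). Fbn2 was most like Zfp462 (0.10) and Myh10, a non-muscle myosin (0.12). Fbn1 was most like Carmil1 (0.11) and Cdon (0.13), and Fbln1 was most like Slc43a1 (0.17) and Basp1 (0.17). Eln was the 1 member found near another member in these pairs.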

How the data were processed

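Total RNA of embryonic left and right ventricles was made into libraries with a TruSeq kit, per the labels. The authors deposited 1 table of whole-number read counts per Ensembl gene and library. Per the submitters' processing notes the build was mm9 and the tools included HTSeq 0.5.4p5, TopHat2 2.0.9, edgeR 3.4.2 and Picard; the annotation, strand setting and duplicate handling are not stated there. Symbols were found for 32919 of the 37991 genes (86.6%); the table has no entries other than genes. Tests on the deposited counts used the quasi-likelihood pipeline of edgeR 4.0.16 in R 4.3.3 (glmQLFit, glmQLFTest), after TMM scaling and the filterByExpr filter (at least 10 counts, total at least 15). P-values were adjusted by Benjamini-Hochberg over all genes tested.

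HLHS was compared with control with stage as a term, sides with the embryo as a block, and the difference of the HLHS effect between sides with the embryo, side, side by stage and side by phenotype. Left and right libraries with the same number come from 1 embryo, per the labels' titles. Over genes, the difference between the 2 control embryos of a litter on the left correlated with that on the right, with r of 0.32 at E14.5 and 0.35 at E17.5. Replicate libraries of 1 litter differed by more than counting noise (chi-square per degree of freedom of at least 7.01). Alternatives were DESeq2 1.42.0 size factors or test, limma-voom (limma 3.58.1), other count filters, other models and leaving out each embryo. CPM per kb uses exon lengths of a GRCm38 annotation, another build than mm9, so no mm9 coordinates are given.

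The genes, the companion lists and the marker lists were chosen with earlier results of these data known. Named companion genes were those past the threshold with the largest changes, at an average log2 CPM of at least 2, up to 4 in each direction of a list, of which some are given and some are not reported here. The 2 most alike genes are named for each gene called with HLHS. Exons of Fbn1 and Ltbp2 overlap those of genes on the other strand, with at most 18 and 9 counts per library.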

Additional observations from a re-analysis of the deposited data

Results flagged for a closer look

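Fbn2 in the left ventricle of control embryo 1 stood at 528 CPM, far above the other 4 control left libraries, which held 247 to 316 CPM. It is the only E13.5 embryo among those 5, and the HLHS littermate held 703 CPM. Of 20 groups with 5 libraries, 1 was marked in this way, and chance marks about 1 in 20.

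The HLHS effect on Fbln2 differed between the ventricles: the left-minus-right difference of the log2 changes was -0.92 ± 0.18 (adjusted p = 0.035, edgeR). Fbln2 was higher in HLHS than in every control of the litter in 3 of 3 litters on the right and 1 of 3 on the left.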

How the results depend on the processing

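The number of the 10 genes called was within 1.5 times the reported count for every comparison with DESeq2 size factors, the DESeq2 test, limma-voom and a filter of 1 CPM in 3 libraries. Without a count filter it was 4 for HLHS on the left, 8 on the right, 2 for the left-minus-right difference and 4 for stage on the right. With all 16 libraries in 1 fit it was 1 on the left, where Fbn2 was lost. With no replicate block (stage left out) it was 0 for HLHS on the left, on the right and summed, and 0 for the left-minus-right difference with the embryo left out. With the embryo as replicate block but no side by stage term it was also 0 for that difference. In HLHS the side comparison without the embryo block but with stage is the same fit, since each stage is 1 embryo. Leaving out 1 embryo gave counts of 1 to 2 (HLHS, left), 0 to 9 (HLHS, right), 2 to 9 (summed), 0 to 2 (left minus right), 3 to 5 (side, control), 5 to 7 (side, HLHS), 6 to 8 (stage, left), 1 to 7 (stage, right) and 0 to 8 (stage by side). The cause was not tested; such fits hold fewer embryos. Where 1 library was then left in a stage, it was assumed to vary like the others.

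Over all genes, among the settings that kept every embryo, the counts that moved by more than 1.5 times were, for HLHS on the left, 1 without the block against 2043; on the right 1720 without a filter, 1662 in 1 fit of 16 libraries and 0 without the block, against 1067; summed, 0 without the block against 2401. For left minus right they were 267 by DESeq2, 356 without a filter, 24 without the block and 3 without the side by stage term, against 171. For side they were 1570 (control, against 990) and 1309 (HLHS, against 637) without a filter. For stage they were 3839 by DESeq2 on the left, against 5830, and 4389 with all 8 libraries on the right, against 2878. For stage by side they were 524 without a filter, 146 by DESeq2 and 0 without the block, against 862. Leaving out 1 embryo gave all-gene counts of 845 to 2309 (HLHS, left; lowest without HLHS embryo 2), 195 to 1518 (HLHS, right; lowest without control embryo 1), 865 to 2135 (summed; lowest without HLHS embryo 2) and 60 to 271 (left minus right; lowest without control embryo 4). They were 486 to 883 (side, control; lowest without control embryo 3), 270 to 1117 (side, HLHS; lowest without HLHS embryo 2), 4019 to 5834 (stage, left), 1190 to 3378 (stage, right; lowest without control embryo 4) and 26 to 2050 (stage by side; lowest without control embryo 4, highest without control embryo 3).

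Of the log2 changes of single genes, 29 turned their sign, 0 of them for a gene that was called. Leaving out 1 embryo did so in 27. Those ranged, for HLHS on the left, from -0.29 to 0.0503 (Eln), -0.16 to 0.00050 (Fbln2) and -0.16 to 0.22 (Fbln5), and for Ltbp4 from -0.0416 to 0.23 on the right and -0.0832 to 0.0321 summed. For left minus right they ranged from -0.24 to 0.23 (Fbn2), -0.16 to 0.18 (Ltbp1) and -0.23 to 0.76 (Ltbp2). For side they ranged from -0.24 to 0.0147 (Ltbp4, control), -0.25 to 0.0112 (Fbn2, HLHS) and -0.17 to 0.16 (Fbln1, HLHS). For stage on the right they ranged from -0.26 to 1.10 (Eln), -0.25 to 0.34 (Fbln2), -0.997 to 0.58 (Fbln5) and -1.43 to 0.20 (Ltbp2), and for stage by side from -1.18 to 0.40 (Ltbp2). The Fbln2 change with stage on the right was -0.00039 with a filter of 1 CPM in 3 libraries and -0.0743 with all 8 libraries.

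Ltbp2 on the left, at 22 to 181 counts per library, is the value most limited by depth.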

Other observations

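Summed over the 10 genes, the right ventricles held 1696 to 2665 CPM in controls and 2663 to 3610 CPM in HLHS, and the left ventricles 1269 to 1875 CPM in controls and 1472 to 2152 CPM in HLHS. The HLHS right ventricle of E13.5 was highest at 3610 CPM, against 1782 CPM in the control of its litter.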
